A study of Mus musculus with 8 samples.

Results

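The Notch pathway was examined through 10 genes: the receptors Notch1, Notch2, Notch3 and Notch4, the ligands Jag1, Jag2 and Dll4, and the target genes Hes1, Hey1 and Hey2. They were taken by Entrez ID from a table of 27179 counted genes, and all 10 were found in it. RNA-seq was performed on neonatal cardiomyocytes (NCMs), each library made from 1 male C57Bl/6J heart collected on postnatal day 0. The dams breathed filtered air (FA, 4 libraries, replicates 2, 3, 4 and 6) or diesel exhaust (DE, 4 libraries, replicates 1, 3, 5 and 7) from E0.5 to E17.5 (embryonic days), and no transgene or other treatment was involved. Hearts were trimmed of atrial and surrounding vascular tissue, dissociated with Liberase TH, and freed of attaching fibroblasts by a plating step with Ara-C, so cells of other types could remain in the pellet. The source does not say whether pups of a group shared a litter, so p-values measure the spread between pups and may miss a litter effect. Column names hold an unexplained number, 12 for DE replicates 3 and 5 but 11 for the other 6 libraries.

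Notch is a receptor that one cell uses to read a ligand on its neighbor. Jagged and Delta-like ligands pull on the receptor, which is then cut by an ADAM protease and by gamma-secretase, and the freed intracellular domain enters the nucleus and joins the DNA-binding protein Rbpj to switch on genes of the Hes and Hey families. In the heart the pathway is known from the endothelium and endocardium, from smooth muscle of the coronary vessels, and from the division between ventricle and atrium, where Hey2 belongs to ventricular and Hey1 to atrial myocardium. Notch activity is also known to keep immature cardiomyocytes dividing.

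Total counts ranged from 17943024 to 39839737 per library, and members had between 344 counts (Jag2) and 4880 counts (Notch1) in a single library. CPM here is the count normalized to library size with TMM scaling. The 10 cardiomyocyte markers summed to at least 26780 CPM, so the labelled cell type was present in every library, and their sum was 32736 to 33278 CPM in FA against 26780 to 30673 CPM in DE, with 9 of 10 genes below 0, a median log2 fold difference of -0.15 and 1 called (Pln). RNA of other cell types was measured as well. The sum of 12 endothelial markers ranged from 1204 to 1576 CPM in FA and, overlapping with it, from 1291 to 1923 CPM in DE. The sum of 10 mural markers (pericytes and smooth muscle) was 1608 to 2181 CPM in FA and lower in each DE library, at 1173 to 1579 CPM, although 6 of the 10 genes had a log2 fold difference above 0 and 0 were called by edgeR (2 at an unadjusted p under 0.05). The sum of 10 fibroblast markers was 2110 to 3661 CPM in FA and higher in each DE library, at 3859 to 6565 CPM, with 10 of 10 genes above 0 and 3 called (Col1a1, Dcn and Dpt). In whole pellets like these, fewer cells of a type and less RNA per cell cannot be told apart.

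Among the 10 members, Notch4 was the only gene called between DE and FA, and it rose 1.55-fold. The other 9 were not called, 5 with a log2 fold difference below 0 and 4 above. Calls required a Benjamini-Hochberg adjusted p of at most 0.05, from the quasi-likelihood fit of edgeR over 14966 genes, together with a change of at least 25%. By this rule 5.8% of all tested genes were called, 3.58% higher and 2.22% lower in DE, so that 1 call among 10 genes lay near the background. Of all calls, 61.8% were higher in DE, a share of 78.7% with library totals alone in place of TMM and of 38.6% with the 25% difference built into the test. The median log2 fold difference was -0.03 over the members and 0.00 over all tested genes. Notch4 was also the only member whose CPM values did not overlap between the groups, against 14.7% of all tested genes. At an unadjusted p under 0.05 there were 2 members, Notch4 and Jag2, against 25.6% of all tested genes. Each unadjusted count from this fit is to be read beside that share.

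**Figure D1:**
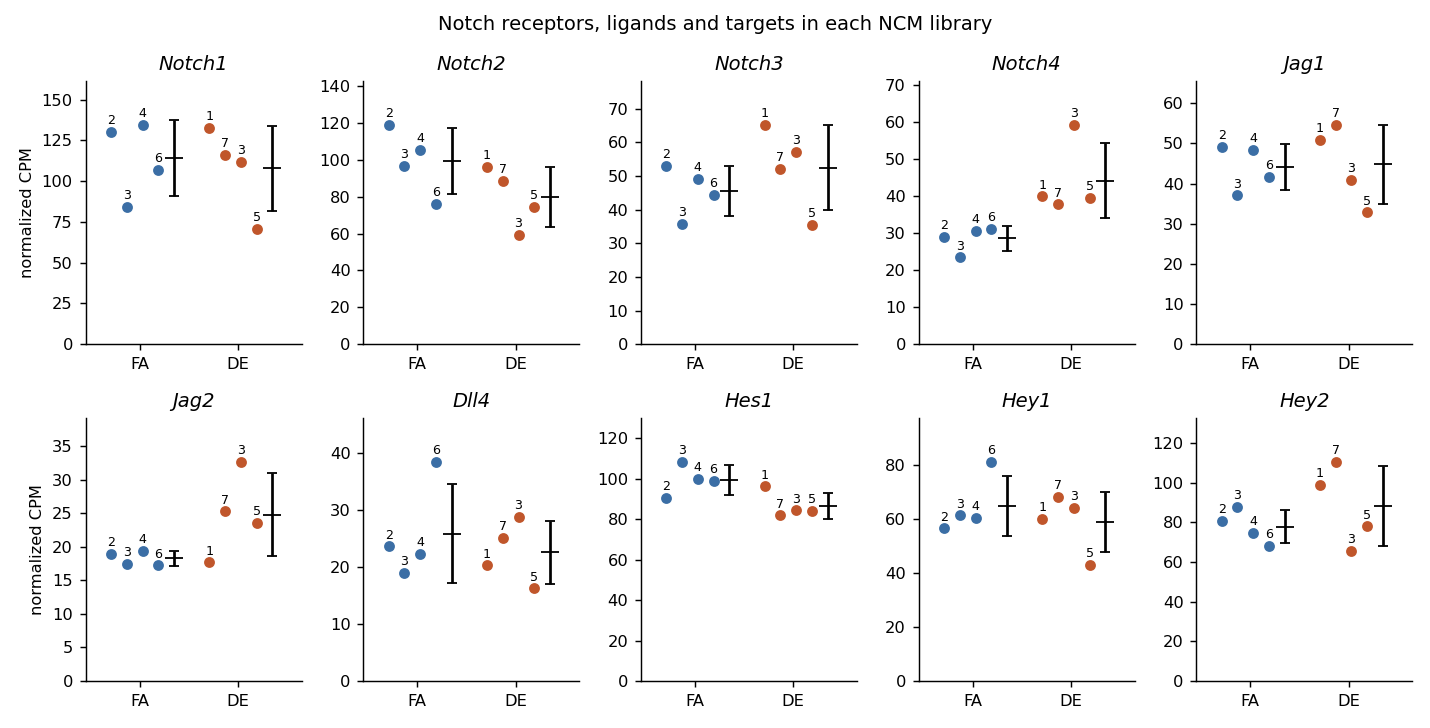
Normalized CPM (vertical axes, each starting at 0) of the 10 members in the 4 FA (blue) and 4 DE (orange) libraries, with replicate numbers above the points and the mean ± SD of each group in black. The 4 DE values of Notch4, from 37.7 to 59.1 CPM, lie above all 4 FA values, while the groups overlap in the other 9 panels.

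Levels were compared between genes per kilobase of annotated exon. The targets stood highest, with Hes1 at 63.4 ± 6.39, Hey2 at 32.6 ± 6.05 and Hey1 at 25.5 ± 4.43 CPM per kilobase (mean ± SD, n = 8 libraries). Receptors and ligands lay well below the targets. The order went on with Notch1 (11.7 ± 2.44), Notch2 (8.52 ± 1.81), Jag1 (7.92 ± 1.33), Dll4 (6.47 ± 1.85), Notch3 (6.11 ± 1.28), Notch4 (5.50 ± 1.65) and Jag2 (4.22 ± 1.06). Hes1 exceeded Hey2 in 8 of 8 libraries, Hey1 exceeded Notch1 in 8 of 8, and Notch4 exceeded Jag2 in 8 of 8. The order of the other neighbors changed from library to library: Hey2 was above Hey1 in 6 of 8 libraries, Notch1 above Notch2 in 7, Notch2 above Jag1 in 5, Jag1 above Dll4 in 6, Dll4 above Notch3 in 4 and Notch3 above Notch4 in 6. The exon length is that of GENCODE M21, which may differ from the annotation used for counting.

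**Figure D2:**
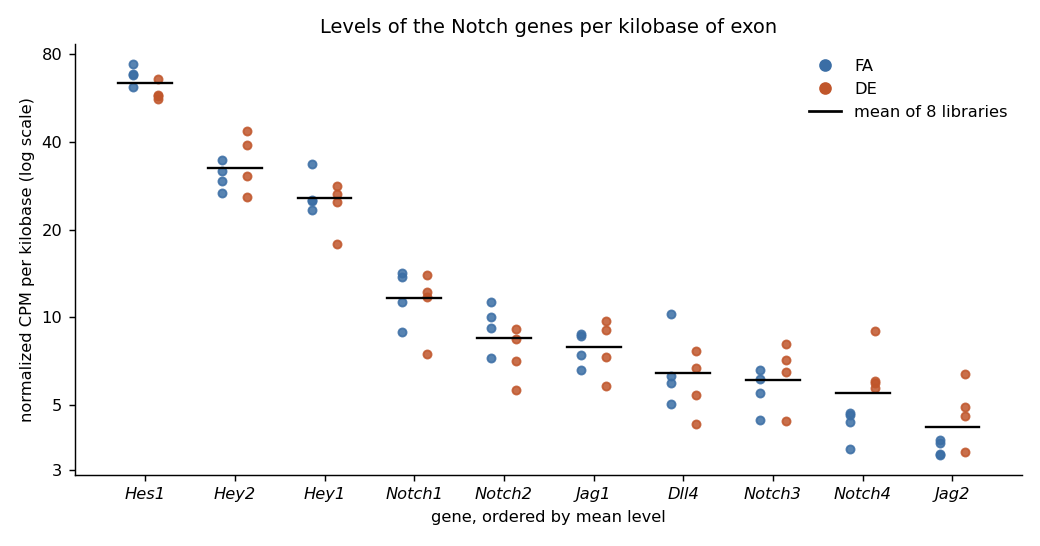
Normalized CPM per kilobase of exon (log scale) for the 10 members in order of their mean, with FA libraries in blue, DE libraries in orange and the mean of 8 libraries as a black line. Hes1, Hey2 and Hey1 have means of 63.4, 32.6 and 25.5, above every receptor and ligand.

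Notch4 (Entrez ID 18132, on chromosome 17 at 34564286 to 34588543 of the build GRCm38.p6, used for all positions here) encodes the receptor known chiefly from endothelial cells. Its level was 28.9, 23.5, 30.6 and 31.0 CPM in FA replicates 2, 3, 4 and 6, and 39.9, 59.1, 39.4 and 37.7 CPM in DE replicates 1, 3, 5 and 7. The lowest DE library stood above the highest FA library, and DE replicate 3 stood apart from the other DE libraries. Means were 28.5 ± 3.49 CPM for FA and 44.0 ± 10.1 CPM for DE (SD, n = 4 each), which gave a log2 fold difference of 0.63 (standard error 0.16, 95% interval 0.29 to 0.97, edgeR adjusted p = 0.0396). The call was close to its threshold. It was kept in 2 of the 8 fits that left out 1 library, without DE replicate 1 or DE replicate 7, and the adjusted p over these 8 fits ranged from 0.0374 to 0.111. In 5 of the 6 fits that lost the call, those without FA replicate 2, 3, 4 or 6 or DE replicate 5, the log2 fold difference was 0.54 to 0.68. Without DE replicate 3 it was 0.45 (adjusted p = 0.0863), and with the number in the column name as a term it was 0.45 (adjusted p = 0.171). Within the libraries named 11 it was 0.44 (adjusted p = 0.123), and those named 12 hold DE samples only.

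**Figure D3:**
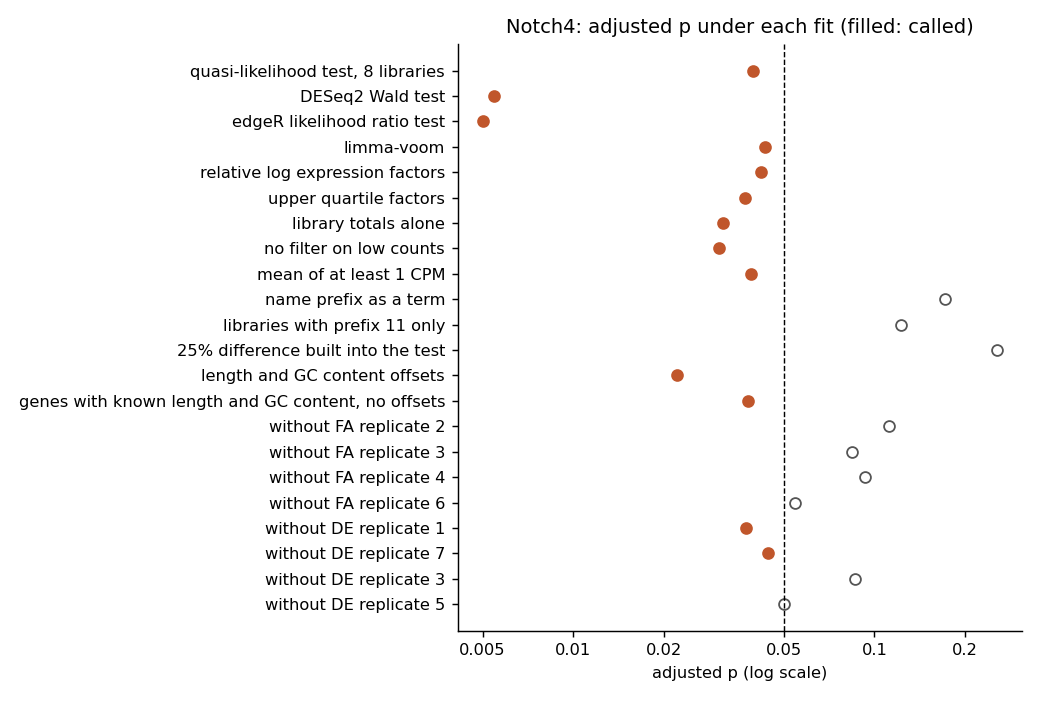
Adjusted p of Notch4 (log scale) in the quasi-likelihood fit of 8 libraries and in 21 other fits, 1 row each, with the threshold of 0.05 dashed and filled points where the gene was called. Exchanging the tool or the scaling kept the call, whereas 6 of the 8 fits without 1 library, the fits on the number in the column name (name prefix) and the fit with the 25% difference built into the test lost it.

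Of 12 endothelial markers 1 was called, Robo4, an endothelial guidance receptor (0.63, edgeR adjusted p = 0.0454). The other 11 were not called and ranged from -0.09 (Cldn5) to 0.60 (Egfl7). The median of the 12 was 0.22, with 10 above 0 and 5 at an unadjusted p under 0.05. The sum of the 12 markers was 1322, 1204, 1423 and 1576 CPM in FA replicates 2, 3, 4 and 6, and 1456, 1923, 1291 and 1663 CPM in DE replicates 1, 3, 5 and 7. DE replicate 3 was highest in both Notch4 and this sum, and the sums of the groups overlapped. On the log2(CPM + 1) scale the difference of Notch4 was 0.59, and after the mean of the 12 markers was subtracted in each library it was 0.34, with overlap between the groups. By construction this lowers the difference of all 10 members by the same 0.25, the DE minus FA difference of the marker mean. Jag2 went from 0.39 to 0.14, Notch2 from -0.32 to -0.57, Hes1 from -0.20 to -0.45, Dll4 from -0.17 to -0.42 and Hey1 from -0.15 to -0.40. Notch1 went from -0.09 to -0.34. The sign changed in Notch3 (0.18 to -0.07), Hey2 (0.16 to -0.09) and Jag1 (0.007 to -0.24). After it the groups no longer overlapped in Dll4 and Hey1, lower in DE, and overlapped in the other 8 members. The subtraction moves every gene toward lower values in DE. The share of all tested genes that separate after it was not computed, so this separation is not read as a result about Dll4 or Hey1. The part of endothelial RNA in the Notch4 difference was not tested beyond this. The 7 arterial endothelial markers had a median of 0.06 and the 4 endocardial markers a median of 0.11, with 0 called in either list (1 gene in each at an unadjusted p under 0.05). In these pellets the genes whose profile over the 8 libraries lay closest to that of Notch4 were Trim16, Ch25h and Stx11, at root mean square distances of 0.0726, 0.0783 and 0.0909 on the log2 scale. Stx11 was called (log2 fold difference 0.58, edgeR adjusted p = 0.0448), and Trim16 (0.62, edgeR adjusted p = 0.0599) and Ch25h (0.60, edgeR adjusted p = 0.152) were not. The 3 genes were picked for their closeness to Notch4 in these same libraries. Differences near that of Notch4 thus follow from the choice and are no separate result.

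The promoter of Notch4 held fewer CpG than those of the other members at hand, although its GC content of 58.3% lay within their range of 55.7% to 86.0%. RefSeq promoters on GRCm38.p6 (250 bases before to 50 after the gene's start) were at hand for 8 of the 10 members, all but Hes1 and Hey1. The observed over expected CpG content was 0.214 for Notch4, which held 5 CpG in the 300 bases, and between 0.595 (Dll4) and 1.14 (Jag2) for the other 7 members. The median over all 32851 promoters was 0.384, so Notch4 was the only member below it. The 250 bases before the start used in the promoter table, 34564295, are shown for this contrast, with each CpG in capitals (chr17:34564045-34564294, plus strand, 5′ to 3′). That start lies 9 bases inside the gene's annotated span, and the starts of Notch3 and Jag2 lie 6 and 317 bases inside theirs.
Notch4 promoter: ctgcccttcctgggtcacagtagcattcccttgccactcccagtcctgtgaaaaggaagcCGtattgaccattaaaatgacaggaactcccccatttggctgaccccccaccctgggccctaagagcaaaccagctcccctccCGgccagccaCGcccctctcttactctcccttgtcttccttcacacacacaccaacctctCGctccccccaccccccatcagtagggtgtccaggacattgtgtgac

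Notch1 (chromosome 2 from 26457902 to 26503822), the receptor of arterial endothelium and immature myocardium, was measured at 130.4, 84.5, 135 and 107 CPM in FA replicates 2, 3, 4 and 6, and at 133, 112, 71.0 and 116 CPM in DE replicates 1, 3, 5 and 7. The groups overlapped widely, with FA replicate 3 and DE replicate 5 as the lowest libraries. The log2 fold difference was -0.08 (95% interval -0.50 to 0.34, edgeR adjusted p = 0.819), and it turned to 0.022 with offsets for exon length and GC content and to 0.075 without DE replicate 5. Notch2 (chromosome 3 from 98013538 to 98150367), a receptor of smooth muscle and its precursors, was at 119, 96.8, 105 and 76.1 CPM in FA and at 96.2, 59.3, 74.6 and 88.6 CPM in DE, in the same order of replicates. Of the 4 receptors it had the lowest log2 fold difference, at -0.32 (95% interval -0.68 to 0.05, adjusted p = 0.253). FA replicate 6 and DE replicate 3 were the lowest of their groups. Notch3 (chromosome 17 from 32120820 to 32166896), the receptor of pericytes and arterial smooth muscle, was at 53.0, 35.7, 49.2 and 44.3 CPM in FA and at 65.1, 57.1, 35.4 and 52.0 CPM in DE. Its log2 fold difference was 0.20 (95% interval -0.19 to 0.59, adjusted p = 0.505), while the 10 mural markers had a median of 0.11 and a lower sum in DE, most of which was Acta2 (1150 CPM in FA and 745 CPM in DE, means of n = 4 each), a smooth muscle actin that immature cardiomyocytes also make. The data thus left room for changes of either sign in Notch1, Notch2 and Notch3.

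Expressed as shares of the 4 receptors per kilobase, Notch1 made up 38.0 ± 2.79% in FA and 34.9 ± 3.49% in DE, and Notch2 30.1 ± 4.27% and 23.9 ± 4.96% (SD, n = 4 each). The share of Notch3 was 18.03 ± 0.961% and 20.1 ± 1.84%, and that of Notch4 was 13.9 ± 1.78% and 21.1 ± 5.09%. Even for Notch4 the shares of the groups overlapped, since FA replicate 6 reached 16.4% and DE replicate 1 held 16.2%. These shares are given as a description, with no test.

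**Figure D4:**
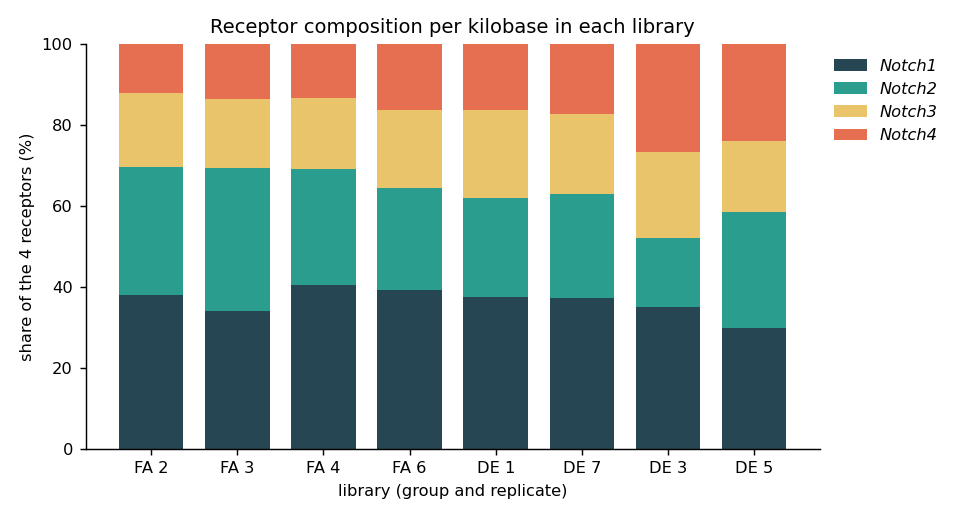
Share of each receptor (percent, stacked to 100) in the CPM per kilobase of Notch1 to Notch4, 1 bar for each library. Notch4, on top, takes 12.2% to 16.4% of the FA bars and 16.2% to 26.8% of the DE bars.

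Jag1 (chromosome 2 from 137081451 to 137116520), the main Jagged ligand of the vessel wall, was at 49.1, 37.0, 48.3 and 41.7 CPM in FA replicates 2, 3, 4 and 6 and at 50.8, 41.0, 32.8 and 54.6 CPM in DE replicates 1, 3, 5 and 7. Its means were 44.0 ± 5.73 and 44.8 ± 9.83 CPM (SD, n = 4 each), a log2 fold difference of 0.02 (95% interval -0.33 to 0.37, edgeR adjusted p = 0.948). The sign of this difference changed when FA replicate 3, FA replicate 6, DE replicate 1 or DE replicate 7 was left out. Jag2 (chromosome 12 from 112907803 to 112929812), a second Jagged ligand, was at 18.92, 17.48, 19.40 and 17.25 CPM in FA, a narrow range, and at 17.7, 32.7, 23.6 and 25.3 CPM in DE. In DE, 3 of 4 libraries stood above all FA libraries, and DE replicate 1 lay within them. The log2 fold difference was 0.44 (95% interval 0.09 to 0.80, unadjusted p = 0.0187, edgeR adjusted p = 0.119), so Jag2 was not called. Without DE replicate 1 it was called, at 0.57 (adjusted p = 0.0295), and without DE replicate 3 it was at 0.28 (adjusted p = 0.326). With the number in the column name as a term it was at 0.23 (adjusted p = 0.528), and within the libraries named 11 at 0.22 (adjusted p = 0.519).

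Dll4 (chromosome 2 from 119325784 to 119335666), the Delta-like ligand of arterial and sprouting endothelium, was at 23.6, 19.0, 22.3 and 38.5 CPM in FA and at 20.3, 28.9, 16.3 and 25.1 CPM in DE. FA replicate 6 stood above all other libraries, and Dll4 had the widest spread of the members in FA, a coefficient of variation of 33.4%. The log2 fold difference was -0.20 (95% interval -0.69 to 0.30, adjusted p = 0.615) and 0.058 without FA replicate 6. The log2 ratio of Jag1 to Dll4 per kilobase was 0.23 ± 0.47 in FA and 0.41 ± 0.35 in DE (SD, n = 4 each), a difference that did not exceed the spread between libraries (exact two-sided permutation test, p = 0.543, with 0.0286 the smallest p that 4 against 4 libraries allow).

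None of the 3 target members was called, by edgeR at an adjusted or at an unadjusted p under 0.05. Hes1 (chromosome 16 from 30065357 to 30067796) encodes a repressor of the basic helix-loop-helix class that answers to Notch in many tissues. It was at 90.6, 109, 99.9 and 99.0 CPM in FA replicates 2, 3, 4 and 6 and at 96.3, 84.5, 84.1 and 82.0 CPM in DE replicates 1, 3, 5 and 7. All but DE replicate 1 among the DE libraries lay below all FA libraries. The log2 fold difference was -0.20 (95% interval -0.41 to 0.01, edgeR adjusted p = 0.220), with the smallest standard error of the 10 members, 0.10. As a fold of DE over FA this interval runs from 0.754 to 1.01.

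Hey1 (chromosome 3 from 8663359 to 8667038), a target in endothelium and atrial myocardium, was at 56.6, 61.3, 60.5 and 81.3 CPM in FA and at 60.0, 64.1, 43.1 and 68.2 CPM in DE, so FA replicate 6 was the highest and DE replicate 5 the lowest library. Its log2 fold difference was -0.14 (95% interval -0.48 to 0.20, adjusted p = 0.593), and -0.018 without either of these libraries. Hey2 (chromosome 10 from 30832359 to 30842783), also named CHF1, is the Hey gene of ventricular myocardium. It was at 80.9, 87.9, 74.7 and 68.1 CPM in FA and at 98.9, 65.8, 78.0 and 111 CPM in DE. DE replicates 1 and 7 stood above all FA libraries and DE replicate 3 below them, so that the DE libraries enclosed the FA range. The log2 fold difference was 0.18 (95% interval -0.16 to 0.52, adjusted p = 0.492), 0.048 without DE replicate 7 and 0.43 with the number in the column name as a term.
Within a library, the log2 ratio of Hey2 to Hey1 per kilobase was 0.20 ± 0.37 in FA and 0.50 ± 0.37 in DE (SD, n = 4 each), and the difference of 0.31 did not exceed the spread (exact two-sided permutation test, p = 0.314). Leaving out FA replicate 6 made it 0.13, and leaving out DE replicate 3 made it 0.49. The 4 ventricular markers had a median log2 fold difference of -0.11 and the 7 atrial markers a median of 0.28, with 0 called by edgeR in either list (1 and 3 genes at an unadjusted p under 0.05). The sum of the atrial markers did not follow this median, at 526 to 1294 CPM in FA and 525 to 803 CPM in DE.

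Hey2 was the only one of the 8 members with a promoter at hand that held the motif GTGGGAA, a sequence bound by Rbpj. The motif was searched on both strands, with TTCCCAC as its reverse complement, and occurs in 6.38% of all 32851 promoters. The shorter core TGGGAA, which lies within it, occurs in 25.6% of them and also matched no other member. Hey2 held 2 matches, one on the opposite strand with its first base at position -207 from the gene's start and one on the gene's own strand at position -4. The stretch is shown with both matches in capitals (chr10:30842780-30843033, minus strand, 5′ to 3′). A match describes these letters and does not show binding.
Hey2 promoter: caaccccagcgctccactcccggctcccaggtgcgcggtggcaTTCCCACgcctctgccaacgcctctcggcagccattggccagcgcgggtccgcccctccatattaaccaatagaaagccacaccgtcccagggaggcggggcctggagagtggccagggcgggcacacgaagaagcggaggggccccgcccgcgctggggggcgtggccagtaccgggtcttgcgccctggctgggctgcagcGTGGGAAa

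Beyond the members, 55 further genes of the pathway were looked up, all were found, and 48 were tested. Of these, 5 rose in DE, 0 fell and 43 were not called, against 5.8% of all tested genes called in either direction. The median log2 fold difference of the 48 genes was 0.00. The 5 genes that rose were Dlk1, Dtx3, Neurl1b, Numbl and Ccnd1, and in each of them the 4 DE libraries stood above the 4 FA libraries. The 7 genes not tested, Dll3, Dlk2, Rbpjl, Hes2, Hes3, Hes5 and Hes7, had between 1 and 94 counts over the 8 libraries. Hes7, an oscillating gene of somite formation, had 5, 1, 4 and 4 counts in FA replicates 2, 3, 4 and 6 and 9, 17, 27 and 9 counts in DE replicates 1, 3, 5 and 7. It can pass the filter on low counts only through the DE libraries, so no test of it is given. For the other 6 no fit that tested them made a call at this depth. Dll1, Dtx1, Itch, Mib1, Rbpj, Nrarp, Hes7 and Heyl are described in addition to the called genes and the most abundant gene of each list. They were chosen after their values were seen. The fibroblast, mural and cardiomyocyte marker sums given above also separated the groups, and their part in the differences of these pathway genes was not tested.

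Among the other ligands, Dlk1, an imprinted Delta-like protein that lacks the domain with which classical ligands bind the receptor, rose to 118 ± 11.1 CPM in DE against 53.0 ± 10.4 CPM for FA (SD, n = 4 each), with a log2 fold difference of 1.15 (standard error 0.14, edgeR adjusted p = 0.00131). Dlk1 kept its call in all 21 other fits. Single libraries were at 48.0, 47.6, 47.7 and 68.7 CPM in FA and at 125, 119, 102 and 125 CPM in DE. Dll1, a classical ligand, was at 4.24 ± 0.455 and 5.44 ± 0.744 CPM and was not called (adjusted p = 0.175), so that both tested ligands of this list were at an unadjusted p under 0.05.

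Of 11 genes for ligand endocytosis and receptor trafficking, 3 rose and 8 were not called, with 5 of the 11 at an unadjusted p under 0.05. Dtx1 was among the 5, at 18, 2, 4 and 11 counts in FA replicates 2, 3, 4 and 6. In DE replicates 1, 3, 5 and 7 it had 37, 25, 26 and 13 counts. Dtx1 passed the filter on low counts only through the DE libraries, so its p-value is not read as a result. Dtx3, a Deltex-type ubiquitin ligase and per kilobase the most abundant of this list, rose from 41.7 ± 6.39 to 69.4 ± 12.7 CPM, a log2 fold difference of 0.74 (edgeR adjusted p = 0.0193). Neurl1b, a ubiquitin ligase acting on ligands, rose from 22.1 ± 0.757 to 33.3 ± 4.26 CPM (0.59, adjusted p = 0.0134). Numbl, a relative of the Notch inhibitor Numb, rose from 10.5 ± 0.844 to 15.6 ± 2.41 CPM (0.57, adjusted p = 0.0313). In fits without 1 library, Neurl1b was called in 8 of 8, Dtx3 in 5 of 8 (not without FA replicate 2 or 4 or DE replicate 3) and Numbl in 4 of 8 (not without FA replicate 2, 3 or 4 or DE replicate 3). With the number in the column name as a term Neurl1b was called (0.55, edgeR adjusted p = 0.0408), while Dtx3 (0.50, edgeR adjusted p = 0.0747) and Numbl (0.58, edgeR adjusted p = 0.0697) were not. Within the libraries named 11, and with the 25% difference built into the test, these 3 genes lost their calls, and with the length and GC offsets Numbl lost its call as well (0.40, edgeR adjusted p = 0.0712). Mib1, the ubiquitin ligase that most ligands depend on, varied from 25.6 to 66.0 CPM in FA and from 13.3 to 48.2 CPM in DE and was not called (adjusted p = 0.321). Itch lay below 0, at -0.45 (95% interval -0.76 to -0.15, edgeR adjusted p = 0.0768), and was not called. It was called in 4 of the 21 other fits, over which its log2 fold difference was -0.55 to -0.24. Of the 11 genes, 6 had a log2 fold difference above 0.

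The machinery that modifies and cuts the receptor showed no called gene. In the 5 glycosylation genes, of which the fucose-extending enzyme Rfng was the most abundant per kilobase, 0 were called by edgeR's quasi-likelihood test (0 at an unadjusted p under 0.05), with a median of 0.04. In the 10 cleavage genes 0 were called (1 at an unadjusted p under 0.05), with a median of -0.04. The protease Furin, which cuts the receptor on its way to the surface, had mean levels of 171 ± 36.5 CPM (FA) and 168 ± 7.44 CPM (DE). The 10 tested genes of the nuclear complex had a median of -0.15 and 0 called (2 at an unadjusted p under 0.05), with 9 of 10 below 0. Rbpj itself averaged 88.1 ± 8.27 CPM (FA) and 77.1 ± 11.9 CPM (DE), a log2 fold difference of -0.19 (adjusted p = 0.342), and Snw1, the most abundant per kilobase, differed by -0.02.

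Outside the 3 target members, the Hes and Hey family held 2 tested genes and 0 calls. Hes6, a family member that counteracts Hes1, had a log2 fold difference of 0.22 (adjusted p = 0.353). Heyl, the third Hey gene is known from vascular smooth muscle. It was at 45.1, 41.3, 48.1 and 53.0 CPM in FA replicates 2, 3, 4 and 6 and at 41.1, 26.9, 21.0 and 36.0 CPM in DE replicates 1, 3, 5 and 7, without overlap but with little distance between FA replicate 3 and DE replicate 1. Its log2 fold difference of -0.59 was not called (edgeR adjusted p = 0.0812). Heyl was called in 4 of the 21 other fits, those by DESeq2, by the likelihood ratio test, with the length and GC offsets and without DE replicate 1 (lowest adjusted p = 0.0284), and with the number in the column name as a term its log2 fold difference was -0.28 (edgeR adjusted p = 0.319). Among 8 other genes known as Notch targets, 7 had a log2 fold difference above 0, 4 were at an unadjusted p under 0.05 and 1 rose, Ccnd1, the G1 cyclin that many growth signals induce. Ccnd1 was at 36.0, 29.4, 40.4 and 39.96 CPM in FA and at 58.5, 79.6, 64.4 and 63.4 CPM in DE, a log2 fold difference of 0.87 (standard error 0.13, adjusted p = 0.00493). Nrarp, a feedback inhibitor that follows Notch activity closely in many cells, was at 31.2 ± 2.70 and 31.1 ± 5.63 CPM (log2 fold difference -0.01, 95% interval -0.30 to 0.29), and Myc, the most abundant of this list per kilobase, differed by 0.07.

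**Figure D5:**
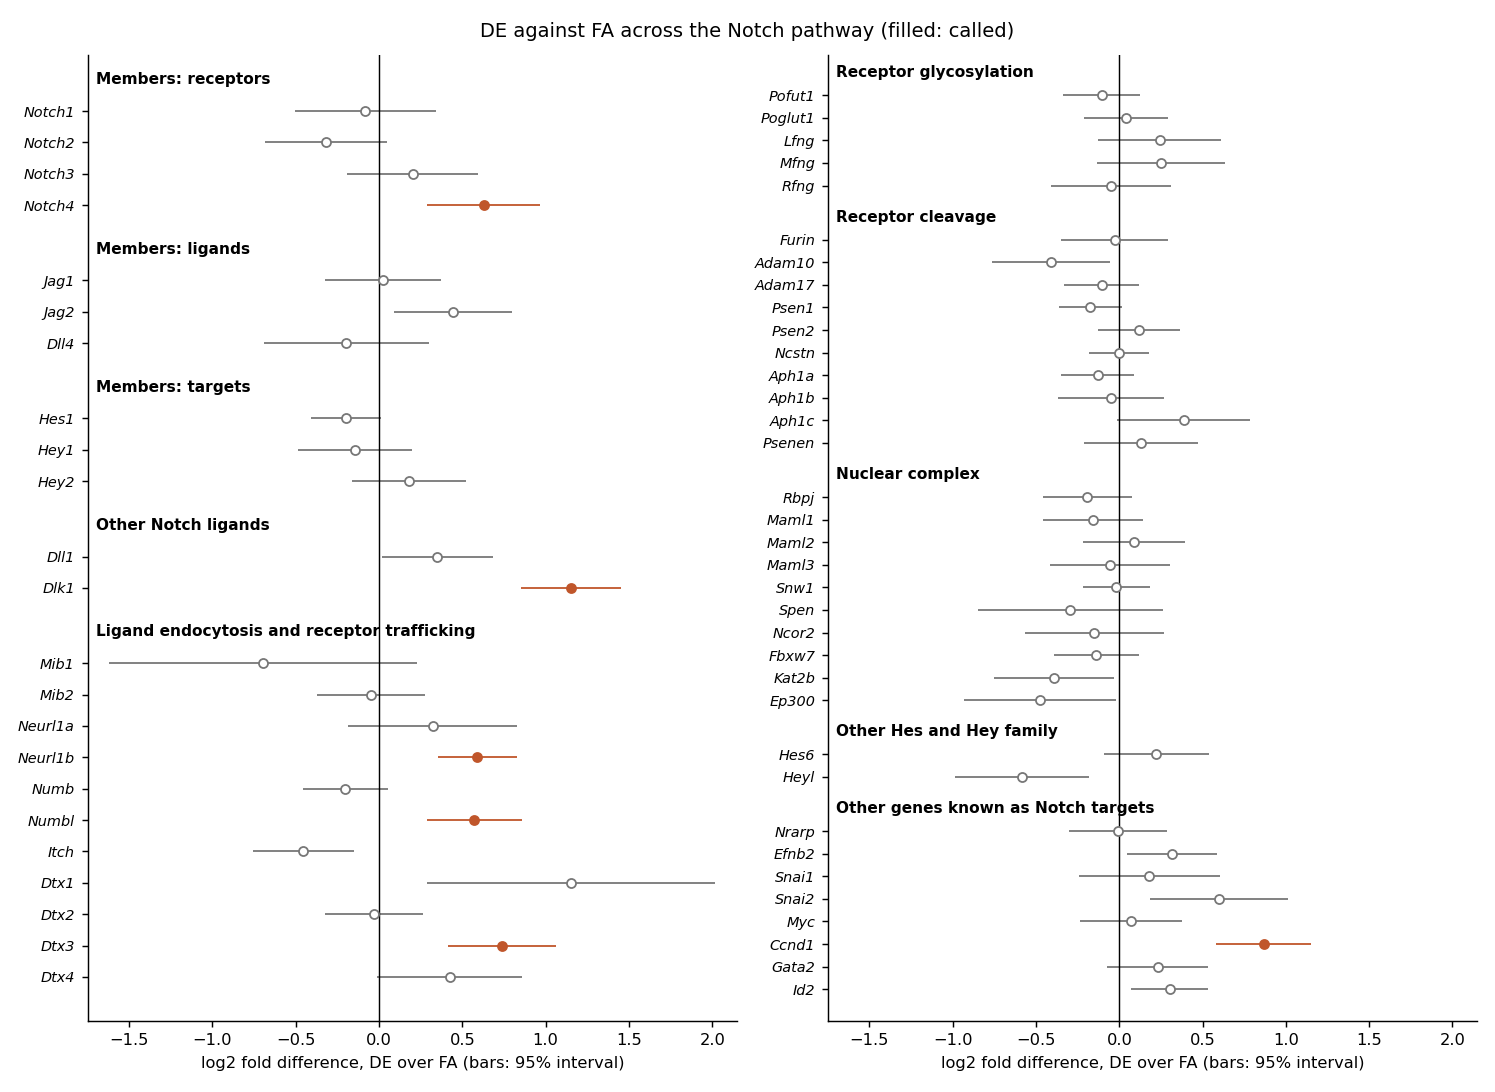
Log2 fold difference of DE over FA (horizontal axis) with its 95% interval for the 10 members and the 48 tested genes of 7 other pathway lists, filled where the gene was called. The 6 called genes, Notch4, Dlk1, Neurl1b, Numbl, Dtx3 and Ccnd1, lie above 0. Dtx1, not called, entered the test only through its DE libraries.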

How the data were processed

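Per the methods, poly-A RNA went into stranded libraries, reads were mapped by TopHat onto mm10 with Ensembl v67 transcripts, and duplicates were marked but kept, so counts may include repeated copies of a fragment. The table that the authors deposited gives raw featureCounts counts for Entrez genes, and all its 8 value columns were used. The strand setting is not given in the sources used here. The methods state fewer animals per group than the 4 deposited and do not name them. Counts of 0610009E02Rik (141 over 8 libraries) and Gm14207 (129), whose spans overlap Notch1 and Dll4, were small beside those of the members.

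Symbols and positions are from RefSeq on GRCm38.p6 (25275 of 27179 genes matched). Genes passing edgeR's filterByExpr (minimum count 10) were scaled by TMM and tested by quasi-likelihood (edgeR 4.0.16, glmQLFit and glmQLFTest, under R 4.3.3) for DE against FA without covariates. Intervals use the degrees of freedom of this fit. Exon length and GC content are from GENCODE M21 and were known for 92.5% of tested genes.

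Also tried were limma-voom (limma 3.58.1), DESeq2 1.42.0, a likelihood ratio test in edgeR, 3 other scalings, 2 other filters, the number in the column name as a term or as a limit, the 25% difference built into the test, length and GC offsets (splines with 5 degrees of freedom), and each library left out. The genes with known length and GC content without offsets were added after the data were seen. Members, lists and tests were chosen with earlier results of these data known. Named were all members, called pathway genes, the most abundant gene of each list, and for called members the 3 genes closest in centred log2 CPM (prior count 1). Further marker lists were epicardial (6 genes, median log2 fold difference -0.01, 0 called by edgeR, 1 at an unadjusted p under 0.05) and leukocyte (9 genes, 5 tested, median 0.45, 0 called, 2 at an unadjusted p under 0.05). The code was tested on simulated data.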

Additional observations from a re-analysis of the deposited data

Results flagged for a closer look

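Of 34 groups of 4 values that were looked at (the 10 members, the 5 called pathway genes and both ratios, in FA and in DE), 3 held a library far from the other 3 by Dixon's criterion at 95%, where chance gives about 1 in 20. In DE, Notch4 was at 59.1 CPM in replicate 3, against 37.7 to 39.9 CPM in the other DE libraries. In FA, Dlk1 was at 68.7 CPM in replicate 6, against 47.6 to 48.0 CPM in the others. In FA, the log2 ratio of Jag1 to Dll4 was -0.47 in replicate 6, where Dll4 was highest, and 0.38 to 0.53 in the others. Leaving out FA replicate 6 turned the difference in this ratio from 0.18 to -0.052. The cause of these values was not tested.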

How the results depend on the processing

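No paired analysis was possible because FA and DE share only the replicate number 3. Over the 21 other fits, the members Notch2, Notch3, Notch4, Jag2, Hes1, Hey1 and Hey2 kept their direction. The subtraction of the endothelial marker mean is not among these fits, and after it Notch3 and Hey2 were below 0. Without 1 library Notch2 ranged from -0.43 to -0.20, Notch3 from 0.076 to 0.35, Jag2 from 0.28 to 0.57, Hes1 from -0.25 to -0.16, Hey1 from -0.23 to -0.018 and Hey2 from 0.048 to 0.30, and the log2 ratio of Hey2 to Hey1 differed by 0.13 to 0.49. With the number in the column name as a term Notch2 was at -0.10, Notch3 at 0.36, Jag1 at 0.26, Jag2 at 0.23, Hey1 at -0.020 and Hey2 at 0.43. Notch1 turned to 0.13 with the number in the column name as a term, 0.12 within the libraries named 11 and 0.022 with the length and GC offsets. In fits without 1 library the log2 fold difference ranged from -0.20 to 0.075 for Notch1, from -0.092 to 0.15 for Jag1 and from -0.34 to 0.058 for Dll4, and the log2 ratio of Jag1 to Dll4 from -0.052 to 0.34. The members called were 0 with the number in the column name as a term and within the libraries named 11. They were also 0 with the 25% difference built into edgeR's quasi-likelihood test. These fits held 2, 3 and 1 members at an unadjusted p under 0.05. The share of all tested genes at that p was not computed for them. DESeq2 called 1 member. Of the other pathway genes 8 were called by DESeq2, 9 by the likelihood ratio test, 3 with the number as a term (Dlk1, Ccnd1 and Neurl1b), 2 within the libraries named 11 (Dlk1 and Ccnd1), 2 with the 25% difference built in and 8 with the offsets, against 5. Over all genes the same fits called 1633, 1603, 448, 260, 114 and 1526, against 868. Without 1 library these counts ranged from 0 to 2 members, 3 to 9 other pathway genes and 237 to 1168 genes in all. Of the calls over all genes, 49.7% (without FA replicate 3) to 66.7% (without DE replicate 5) were higher in DE. The cause was not tested. The count of 9, without DE replicate 1, included Hes7, which entered that fit only through its DE libraries. Its call there is not read as a result. Dtx1, with the same limit, was called in 1 of its 20 other fits.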
